A study of Mus musculus with 6 samples.

Results

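The regenerating islet-derived (Reg) genes of the mouse were followed in the colon epithelium of mice that had gone through a colitis-associated cancer protocol, in 3 mice with Zfp90 intact and 3 mice that had lost it in the intestinal epithelium. The 6 members, Reg1, Reg3a, Reg3b, Reg3d, Reg3g and Reg4, are 6 of the 52550 genes listed for each mouse. They were found by matching Ensembl gene identifiers to symbols, and the family was chosen on the difference that its members show between these same genotypes, so the genotype values of the members are given as a description and without a p-value. Reg2, a further gene of the family, was not among the members and is given below for completeness.

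The control mice, Zfp90fl/fl, carry loxP sites around exon 4 and the 3′ end of Zfp90, a zinc finger gene. The Zfp90ΔIEC mice carry the same floxed alleles together with Cre recombinase driven by the Villin promoter, which is active in epithelial cells along the intestine, so the deletion is not confined to the colon. All mice were C57BL/6 males and came from the same crosses as littermates. The labels give an age of 6 to 8 weeks, and the methods of the study give 8 weeks at the start of treatment. The mice were older when the tissue was taken. All received 10 mg/kg azoxymethane (AOM), a carcinogen, and from day 5 on 3 cycles of 7 days of dextran sulfate sodium (DSS), which injures the colon, and 14 days of water, and they were killed on day 80. The labels give DSS at 2%, and the methods of the study give a higher concentration. There was no group without AOM-DSS. The genotypes were kept apart after weaning, which means that effects of cage and of genotype cannot be told apart. Epithelial cells were released from the colon with EDTA and DTT and sequenced in bulk. The labelled genotype of Zfp90ΔIEC replicates 2 and 3 has a neighbouring gene number in place of Zfp90, and these samples were placed by their titles.

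Reg genes encode small secreted proteins built around a C-type lectin fold. Reg3b and Reg3g are released into the gut lumen, where they bind and kill bacteria and help to keep them away from the epithelium, and their transcription is raised by microbes through MyD88 and by IL-22 through STAT3. Reg4 is a more distant relative that marks deep crypt secretory cells and enteroendocrine cells of the colon, while Reg1, Reg2 and Reg3d are best known from the pancreas.

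Of the members, 5 lie side by side on chromosome 6, and Reg4 lies alone on chromosome 3. With Reg2, the chromosome 6 genes span 98.2 kb (GRCm38, chr6:78370657-78468872), and no other protein-coding gene is annotated among these 6. The promoters are shown for the genes that the values turn on, Reg3b and Reg3g with a large genotype difference and Reg4 without one, together with Reg3a, a low-level neighbour. Each stretch holds the 60 bases before the RefSeq start of transcription and the 50 bases from it on (GRCm38.p6), 5′ to 3′ on the strand of the gene. Capitals mark TATAAA, the TATA box letters.
Reg3b, chr6:78370825-78370934, plus strand: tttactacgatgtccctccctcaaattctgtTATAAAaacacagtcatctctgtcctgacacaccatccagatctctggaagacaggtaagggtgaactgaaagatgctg
Reg3g, chr6:78468825-78468934, minus strand: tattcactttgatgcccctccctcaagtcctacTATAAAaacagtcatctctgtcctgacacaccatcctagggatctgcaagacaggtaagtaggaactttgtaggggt
Reg3a, chr6:78380649-78380758, plus strand: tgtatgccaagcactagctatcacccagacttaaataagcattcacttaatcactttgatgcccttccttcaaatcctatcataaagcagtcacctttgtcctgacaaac
Reg4, chr3:98222096-98222205, plus strand: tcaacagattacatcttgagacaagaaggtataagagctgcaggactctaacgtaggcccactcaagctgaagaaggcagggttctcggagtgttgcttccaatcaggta

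Reg3b and Reg3g, at opposite ends of the cluster and on opposite strands, had the most similar promoters of the family. Over 300 bases, 210 positions (70.0%) were identical in a global alignment, and the other 14 pairs of members ranged from 52.7% to 61.3%. Across the start site both carried the same uninterrupted run of 29 bases, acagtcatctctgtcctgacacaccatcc, from position -20 to position 8 in each, counted from 0 at the start of transcription. The TATAAA letters began at -29 in Reg3b, at -27 in Reg3g and at -30 in Reg1. They were not found near the start in Reg3a, Reg3d or Reg4. Of 32851 RefSeq promoters of the same length, 13.6% held TATAAA on either strand, and 2.14% held it on the sense strand at about the same distance from the start, within positions -45 to -16.

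The letters TTCNNNGAA, to which STAT proteins are known to bind, were also searched on both strands of the 300 bases. Reg3b held them once, at position -129, marked by capitals in the 50 bases printed here. The 50 bases of Reg3g at the same distance from its start are printed for comparison, and no match was found in its promoter.
Reg3b, chr6:78370735-78370784, plus strand: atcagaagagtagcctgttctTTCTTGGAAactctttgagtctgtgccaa
Reg3g, chr6:78468975-78469024, minus strand: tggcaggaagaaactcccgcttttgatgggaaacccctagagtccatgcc

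Among the other members the letters were found in Reg3d, at position -238, and 8.30% of all promoters held them. A stricter form, TTCCNGGAA, was found in no member and in 1.15% of all promoters. A match is a description of the letters only, and binding was not measured here.

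The deposited value of each gene is an FPKM, fragments per kilobase of transcript and M mapped fragments, which corrects for length and depth. Depth is not given beside these values. From the steps between low values it was estimated at 26.1 to 28.6 M fragments. Between 47.7% and 51.8% of low values then lay within 0.1 of a whole fragment, so the estimate is rough. Zfp90 was low in every sample, at 0.490 to 0.630 FPKM in Zfp90fl/fl and 0.0846 to 0.195 FPKM in Zfp90ΔIEC, with no overlap. Genotypes were compared on log2(FPKM + 1) with limma, a linear model that shares information on the spread across genes, over the 11564 genes that reached 1 FPKM in 3 or more samples. A gene passed with a Benjamini-Hochberg adjusted p under 0.05, which 15 genes did as lower and 8 as higher in Zfp90ΔIEC. Without Zfp90fl/fl replicate 2 the split was 3 lower and 7 higher. At an unadjusted p under 0.05 were 14.6% of the genes tested, and 57.2% had a negative log2 fold change. These shares are given beside the counts in gene lists. A gene could pass the filter in the 3 mice of 1 genotype alone, and it could then only be higher in that genotype. The lists were written with earlier results of these data known, so their counts are a description. The labels do not say how the mice were distributed over cages, and p-values measure the spread between these 6 samples.

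The main feature of the family was a much lower level of both bactericidal Reg3 lectins in the Zfp90ΔIEC mice beside a Reg4 level of 208 to 306 FPKM in all mice. Below, values are given for replicates 1, 2 and 3 of each genotype in that order.

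Reg3b (ENSMUSG00000071356, chr6:78370657-78373466), an antibacterial lectin, stood at 461, 1254 and 1802 FPKM in the Zfp90fl/fl mice and at 20.8, 44.7 and 58.5 FPKM in the Zfp90ΔIEC mice. The genotypes did not overlap, and the lowest control mouse was 7.88 times the highest Zfp90ΔIEC mouse. The means were 1172 ± 674 and 41.3 ± 19.1 FPKM (SD, n = 3 each), a 28.4-fold ratio, and the fitted log2 fold change was -4.70 (SE 0.557). In order of FPKM over all 52550 genes, Reg3b took places 68, 26 and 22 in the control mice and places 2107, 992 and 729 in the Zfp90ΔIEC mice.

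Reg3g (ENSMUSG00000030017, chr6:78466269-78468872), which binds the peptidoglycan of Gram-positive bacteria, was measured at 85.4, 164 and 244 FPKM in the controls. The Zfp90ΔIEC mice had 5.56, 14.5 and 11.9 FPKM, again without overlap and with a gap of 5.88 times between the nearest mice. The means of 165 ± 79.4 and 10.7 ± 4.61 FPKM (SD, n = 3 each) differed 15.4-fold, and the log2 fold change was -3.79 (SE 0.442).

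Reg4 (ENSMUSG00000027876, chr3:98222156-98236748), the secretory cell marker, had 236, 245 and 208 FPKM in the controls and 278, 239 and 306 FPKM in the Zfp90ΔIEC mice. Replicate 2 of Zfp90ΔIEC lay within the range of the controls. The means were 230 ± 18.9 and 274 ± 33.6 FPKM (SD, n = 3 each), a ratio of 1.19, and the fitted difference was 0.25 on the log2 scale (SE 0.105). Its place among all genes stayed between 103 and 158 in the 6 mice.

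The other members were close to the limit of detection. Reg3a (ENSMUSG00000079516, chr6:78380709-78383827), a sequence relative of both antibacterial lectins, was at 0.658, 0.728 and 1.18 FPKM in the controls and at 0.238, 0.411 and 0.433 FPKM in the Zfp90ΔIEC mice. These values did not overlap, but they correspond to an estimated 14.2 to 27.7 fragments in the controls and 5.4 to 10.0 fragments in the Zfp90ΔIEC mice. The means were 0.855 ± 0.283 and 0.361 ± 0.106 FPKM (SD, n = 3 each), and on the log2(FPKM + 1) scale, which understates differences at this level, the difference was -0.44 (SE 0.126).

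Reg1 (ENSMUSG00000059654, chr6:78422711-78428667), named for the regenerating islets in which the family was found, overlapped between genotypes. Its values were 0.277, 0.292 and 0.708 FPKM in the controls and 0.126, 0.321 and 0.365 FPKM in the Zfp90ΔIEC mice, a log2 difference of -0.16 (SE 0.139). Reg3d (ENSMUSG00000068341, chr6:78375874-78378865), a pancreatic relative, was at 0.0318, 0.0700 and 0.152 FPKM in the controls. In the Zfp90ΔIEC mice it was at 0.0819 FPKM in replicate 2 and listed at 0 in the others, which at no more than an estimated 3.4 fragments in any mouse cannot be told from a low level. Reg2 was listed at 0 in all controls and at 0.0381, 0 and 0.0376 FPKM in the Zfp90ΔIEC mice.

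**Figure D1:**
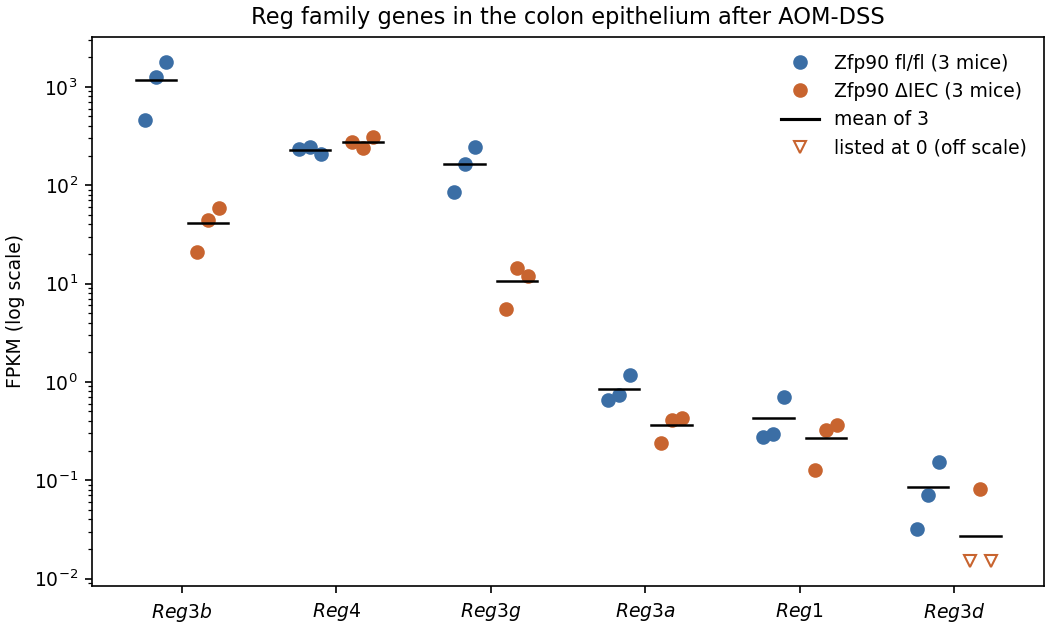
FPKM of the 6 members on a log scale, with a point for each mouse and a bar for the mean of 3. Reg3b and Reg3g separate by genotype with a wide gap, Reg4 stays between 208 and 306 FPKM in all 6 mice, and Reg3a, Reg1 and Reg3d lie near or below 1 FPKM, with open triangles for values listed at 0.

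Of the 6 members, 3 passed the filter on low values (Reg3b, Reg3g and Reg4), and 2 of these 3 were past the threshold as lower in Zfp90ΔIEC. Of all genes tested, 0.13% were lower and 0.0692% were higher past that threshold. Lower values without overlap between genotypes were seen for 2 of the 3 tested members (Reg3b and Reg3g), and for 12.6% of all genes tested, with 8.73% higher without overlap. Of the members under the filter, Reg3a was lower without overlap. Among the 16241 detected genes under the filter 6.23% were, with 4.04% higher without overlap. Since the members were chosen by this contrast, nothing is read from these counts. With a sample left out, Reg3b and Reg3g stayed past the threshold in 1 of 6 fits each, the fit without Zfp90fl/fl replicate 1, and were lost in the other 5. Their fitted log2 fold changes stayed between -5.27 and -4.28 for Reg3b and between -4.20 and -3.42 for Reg3g.

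The sum of the 6 members was 783, 1664 and 2257 FPKM in the controls and 304, 299 and 377 FPKM in the Zfp90ΔIEC mice. The lowest control was above the highest Zfp90ΔIEC mouse. The means of 1568 ± 741 and 327 ± 43.7 FPKM (SD, n = 3 each) differed 4.80-fold. Of all FPKM in a sample, the family took 0.178%, 0.387% and 0.517% in the controls and 0.0692%, 0.0671% and 0.0844% in the Zfp90ΔIEC mice.

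The make-up of the family was inverted between the genotypes. Reg3b made up 58.9%, 75.4% and 79.9% of the family sum in the controls and 6.82%, 15.0% and 15.5% in the Zfp90ΔIEC mice, with means of 71.4% ± 11.0 and 12.4% ± 4.87 (SD, n = 3 each). Reg3g made up 9.87% to 10.9% in the controls and 1.83% to 4.86% in the Zfp90ΔIEC mice. Reg4 made up 30.1%, 14.7% and 9.23% in the controls and 91.2%, 79.9% and 81.1% in the Zfp90ΔIEC mice, so that its mean share was 66.1 percentage points higher there. No share of these 3 genes overlapped between genotypes. The shares of a mouse add up to the whole, so a higher share of Reg4 and a lower share of Reg3b are one measurement and not separate ones. Reg1, Reg3a and Reg3d together made up 0.0931% of the sum in the controls and 0.201% in the Zfp90ΔIEC mice.

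**Figure D2:**
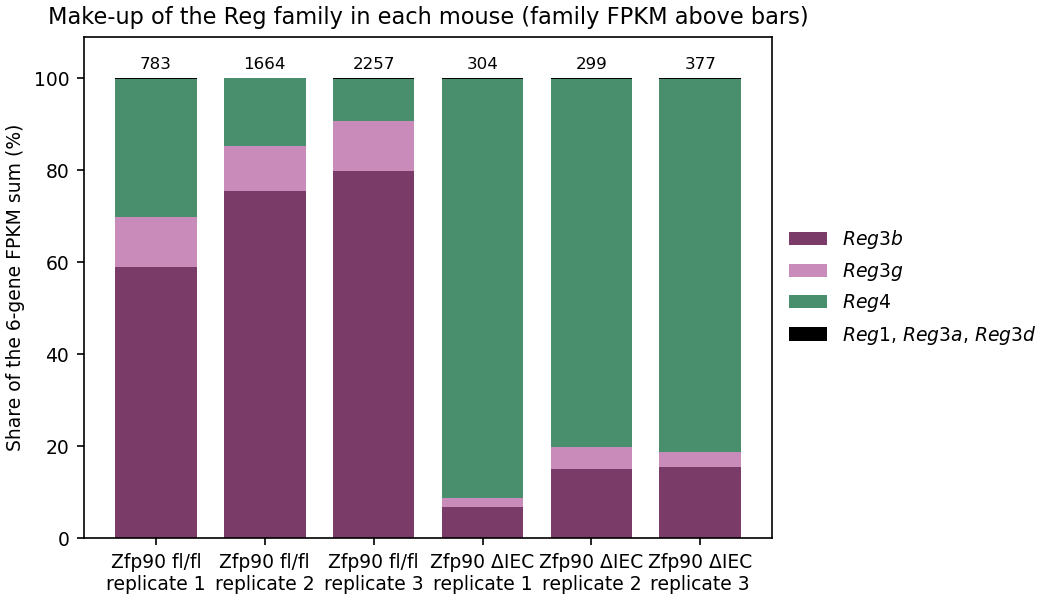
Share of each member in the 6-gene FPKM sum in each mouse, in percent, with the sum in FPKM above each bar. Reg3b is the larger part in all 3 Zfp90fl/fl mice (58.9% to 79.9%) and Reg4 in all 3 Zfp90ΔIEC mice (79.9% to 91.2%).

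Reg3b and Reg3g did not differ by the same factor. Reg3b was 5.40, 7.63 and 7.38 times Reg3g in the controls and 3.73, 3.08 and 4.91 times Reg3g in the Zfp90ΔIEC mice, without overlap, on the FPKM scale. Reg3b was above Reg4 in every control and below it in every Zfp90ΔIEC mouse. It was 1.96, 5.13 and 8.65 times Reg4 in the controls and 0.0748, 0.187 and 0.191 times Reg4 in the Zfp90ΔIEC mice. Reads that fit more than 1 gene of the family are a possible source of error in such ratios, and the transcripts were compared for this. No stretch of 75 bases was shared between the annotated transcripts of any members or Reg2, and the longest exact stretch in common was 35 bases, between Reg3b and Reg3g.

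The mice of a genotype differed from each other far more in Reg3b and Reg3g than in Reg4. The highest control was 3.91 times the lowest for Reg3b and 2.86 times for Reg3g, and the highest Zfp90ΔIEC mouse was 2.82 and 2.61 times the lowest. For Reg4 these ratios were 1.17 and 1.28. On the log2(FPKM + 1) scale the pooled SD within genotypes was 0.89 for Reg3b and 0.71 for Reg3g, larger than for 99.7% and 99.4% of the genes tested, and 0.15 for Reg4, larger than for 76.0%. The median gene had 0.10. All 5 members on chromosome 6 were lowest in replicate 1 and highest in replicate 3 of the controls, whereas Reg4 was lowest in replicate 3. The order of Reg1, Reg3a and Reg3d rests on an estimated 27.7 fragments or fewer per mouse in either genotype. In the Zfp90ΔIEC mice replicate 1 was lowest for Reg1, Reg3a, Reg3b and Reg3g. The highest was replicate 3 for Reg1, Reg3a and Reg3b, as in the controls, and replicate 2 for Reg3g and Reg3d. Reg4 was lowest in replicate 2 and highest in replicate 3 there.

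**Figure D3:**
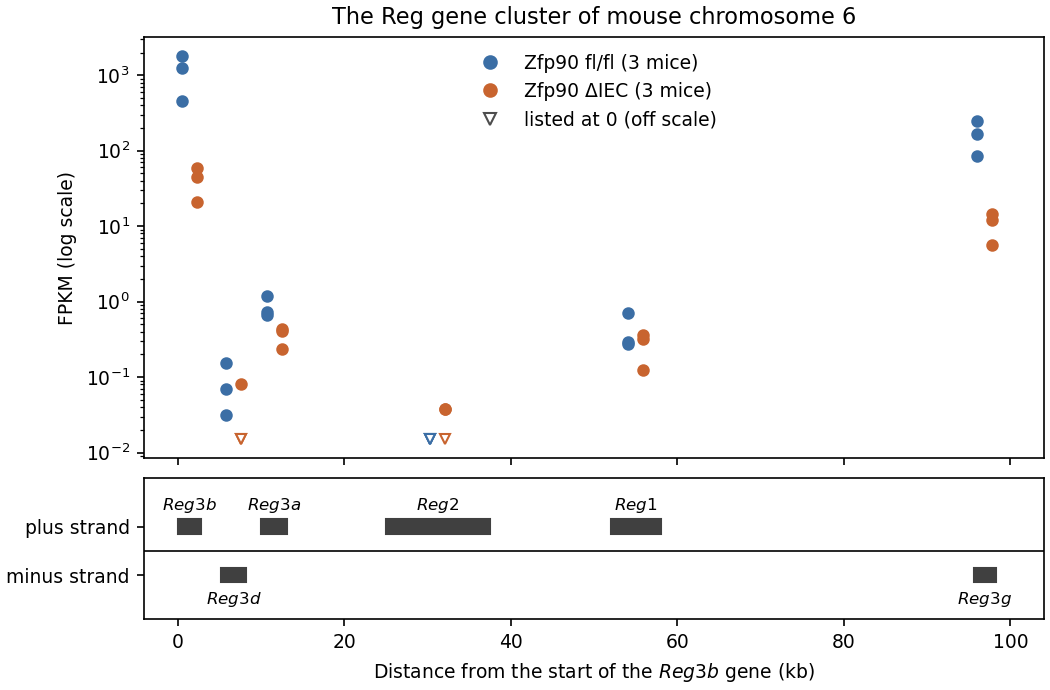
The Reg genes of chromosome 6 by distance from the start of Reg3b in kb, with gene bodies on their strands below and the FPKM of each mouse on a log scale above, the genotypes set slightly apart. Reg3b and Reg3g at the ends of the 98.2 kb cluster are the only members of it above 2 FPKM, and the genes between them are below it in all 6 mice.

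The nearest protein-coding genes outside the cluster were far away and hardly expressed. On the Reg3b side lie Ctnna2, a catenin 391 kb away, Lrrtm1 and Gm9008, of which the highest value in any mouse was 0.439 FPKM, for Lrrtm1. On the Reg3g side lie Gm20594, listed at 0 in all 6 mice, Lrrtm4, at no more than 0.00458 FPKM, and Gcfc2. Gcfc2 was the only one of these 6 genes to pass the filter, at 1.12 ± 0.0489 FPKM in the controls and 1.08 ± 0.143 FPKM in the Zfp90ΔIEC mice (SD, n = 3 each), with a log2 fold change of -0.04 (SE 0.0815).

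The genes with profiles most like those of Reg3b and Reg4 were sought among 6659 genes with a mean of at least 5 FPKM that passed the filter. Likeness was the root mean square difference of log2(FPKM + 1) over the 6 mice after centring each gene, and smaller is closer. Reg3g was at 0.52 from Reg3b. The nearest genes outside the family were Clca4b, of the calcium-activated chloride channel regulator family, at 0.78, the mast cell protease gene Mcpt1 at 1.25, Duoxa2, the maturation factor of the oxidase Duox2, at 1.39, the MHC class II gene H2-Eb1 at 1.79 and Duox2 itself at 1.79. None of the 5 was as close to Reg3b as Reg3g was.

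Clca4b was at 41.6 ± 26.1 FPKM in the controls and 2.61 ± 0.722 FPKM in the Zfp90ΔIEC mice, and its highest control was replicate 3, as for Reg3b. Mcpt1 was at 11.3 ± 2.63 and 0.787 ± 0.235 FPKM, with its lowest control in replicate 3. Duoxa2 was at 18.3 ± 4.80 and 3.82 ± 2.20 FPKM, and H2-Eb1 at 8.00 ± 1.39 and 2.99 ± 1.90 FPKM (SD, n = 3 each). These genes were picked by their likeness to a gene of known difference, and their values are therefore a description.

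The genes nearest to Reg4 had differences of similar, small size. They were Ipp at 0.06, the mineralocorticoid receptor gene Nr3c2 at 0.06, the transcription factor gene Bhlhe40 at 0.07, Ccdc28b at 0.08 and Ddc, the decarboxylase of serotonin synthesis, at 0.08. Nr3c2 had 13.6 ± 0.818 FPKM in the controls and 16.3 ± 1.09 FPKM in the Zfp90ΔIEC mice, Bhlhe40 47.4 ± 5.37 and 58.0 ± 4.63 FPKM, and Ddc 16.1 ± 1.82 and 17.8 ± 1.78 FPKM (SD, n = 3 each). Ipp and Ccdc28b were at 4.59 to 6.27 FPKM on average in either genotype.

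**Figure D4:**
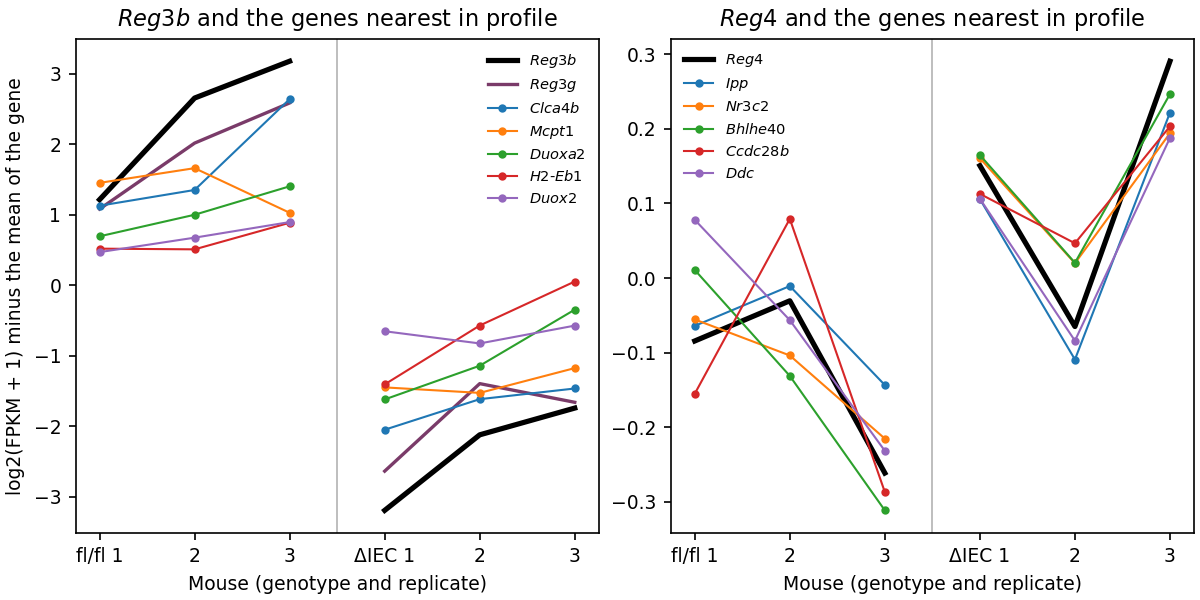
Mean-centred log2(FPKM + 1) of Reg3b (left) and Reg4 (right) and of the 5 genes nearest to each, by mouse. Lines join the values of a gene and imply no order of the mice, and the vertical axes differ, since Reg3b and its neighbours span several log2 units and Reg4 and its neighbours less than 1.

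Other genes of the pathway were read from lists, beginning with relatives and the signals that induce Reg3 genes. Extl3, a proposed receptor of Reg proteins, was at 6.07, 4.98 and 5.68 FPKM in the controls and 4.76, 4.56 and 4.78 FPKM in the Zfp90ΔIEC mice, a log2 fold change of -0.20 (SE 0.0758, limma adjusted p = 0.296). Of 11 cytokine genes, 3 passed the filter (Il1b, Lif and Tnf), and Il1b alone passed the threshold, as lower. Tnf and Lif overlapped between genotypes. Tnf was at 11.1 to 12.2 FPKM in the controls and 10.8 to 14.8 FPKM in the Zfp90ΔIEC mice. Its log2 fold change was 0.11 (SE 0.108, limma adjusted p = 0.687). Lif was at 1.13 to 1.30 FPKM in the controls and 0.898 to 1.31 FPKM in the Zfp90ΔIEC mice. Its log2 fold change was -0.11 (SE 0.0959, limma adjusted p = 0.657). Il1b, which encodes an inflammatory cytokine, had 3.67, 4.19 and 3.08 FPKM in the controls and 0.199, 0.508 and 0.537 FPKM in the Zfp90ΔIEC mice, a log2 fold change of -1.72 (SE 0.131, limma adjusted p = 0.00823, and 0.00376 to 0.0499 over the alternatives). Il1b passed the filter on the controls alone, so it could enter only as lower. Il17a, for another cytokine that induces Reg3 genes, was under the filter, at 0.628, 0.826 and 0.787 FPKM in the controls and at 0.0939, 0.0894 and 0 FPKM in the Zfp90ΔIEC mice, without overlap. In limma without the filter its log2 fold change was -0.72 (SE 0.0642, adjusted p = 0.0589, and 0.0589 to 0.291 over the alternatives), and it did not pass. The study itself singled out Il1b and Il17a from these samples, so neither is independent evidence of the direction of the list. By real-time PCR the study also reported both as lower in the epithelium of Zfp90ΔIEC mice. Il22, the inducer of Reg3 genes made by lymphoid cells, was at most 0.111 FPKM in any mouse and could not be compared at this depth.

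Of 16 genes for the receptors of these cytokines, for STAT3 and for its partners, 12 were tested and none passed in limma, while 5 had an unadjusted p under 0.05. Their median log2 fold change was -0.11, against -0.02 over all genes tested. The members of highest level were Il17rc, a receptor subunit for IL-17, at 28.5 ± 1.65 and 30.2 ± 2.55 FPKM (SD, n = 3 each), and Jak1, a kinase that signals to STAT3, at 17.5 to 18.3 FPKM in the controls and 16.8 to 18.7 FPKM in the Zfp90ΔIEC mice. Stat3 itself, named after its values were seen, had 11.6 ± 1.31 FPKM in the controls and 9.01 ± 0.888 FPKM in the Zfp90ΔIEC mice (SD, n = 3 each), which is -0.33 in log2 fold change (limma adjusted p = 0.205).

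Of 17 genes outside the family that are known as targets of STAT3 or IL-22, 11 were tested, 10 of these had a negative log2 fold change (57.2% of all genes tested), 8 had an unadjusted p under 0.05 (14.6% of all genes tested), and the median was -0.71. Past the threshold, 2 fell and 0 rose. Nos2, 1 of these 2, passed the filter on the controls alone, so it could enter only as lower. The same holds for Saa3, at 1.49 to 2.42 FPKM in the controls and 0.249 to 0.848 FPKM in the Zfp90ΔIEC mice. The list was written with earlier results of these data known, so these counts are not independent evidence of its direction. Duox2, an epithelial enzyme that makes hydrogen peroxide, had 22.5, 26.1 and 30.6 FPKM in the controls and 9.80, 8.58 and 10.4 FPKM in the Zfp90ΔIEC mice, a log2 fold change of -1.36 (SE 0.119, limma adjusted p = 0.0137, and 0.0149 to 0.0589 over the alternatives). It missed the threshold without Zfp90fl/fl replicate 2 (adjusted p from limma 0.0510) and without the filter (0.0589). Nos2, the inducible nitric oxide synthase, had 1.80, 1.40 and 2.09 FPKM in the controls and 0.316, 0.161 and 0.423 FPKM in the Zfp90ΔIEC mice, a log2 fold change of -1.08 (SE 0.124, limma adjusted p = 0.0434). Nos2 missed the threshold in each of the 6 fits without a sample, with an adjusted p from limma of 0.0507 to 0.134, and over all alternatives the range was 0.0377 to 0.134.

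No gene of the other antimicrobial proteins or lectins passed the threshold. Of 13 genes for other antimicrobial proteins of the colon, 8 were tested and none passed in limma, with 5 at an unadjusted p under 0.05 and a median log2 fold change of -0.31. Of these 8, 7 had a negative log2 fold change (57.2% of all genes tested), and Zg16 did not. The largest was that of Slpi, at -1.34 (SE 0.306, limma adjusted p = 0.128). Slpi passed the filter on the controls alone, so it could enter only as lower. Lypd8, which coats flagellated bacteria, had 4506 ± 203 and 4019 ± 618 FPKM, and Zg16, a lectin of goblet cells that binds Gram-positive bacteria, had 483 ± 65.1 and 691 ± 53.1 FPKM (SD, n = 3 each). Of 11 genes for other gut lectins, 9 were tested and none passed in limma, with 2 at an unadjusted p under 0.05 and a median of 0.03. The galectin genes Lgals4, at 1186 ± 77.5 and 1066 ± 93.1 FPKM, and Lgals3, at 568 ± 37.4 and 690 ± 106 FPKM, led that list (SD, n = 3 each). Zg16 and Itln1 stand in both of these lists, and Socs3 stands in both lists around STAT3.

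**Figure D5:**
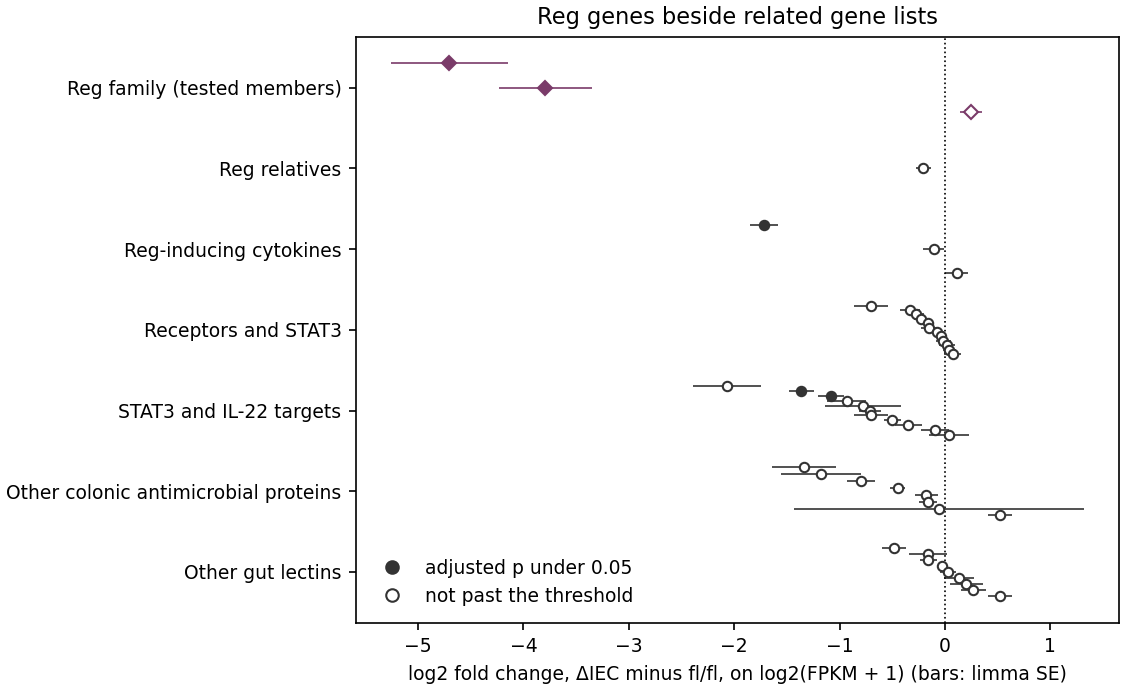
Log2 fold change of each tested gene, Zfp90ΔIEC minus Zfp90fl/fl, by list, with the SE from limma as bars and filled symbols for genes past the threshold. Reg3b (-4.70) and Reg3g (-3.79) lie beyond all listed genes, and Il1b, Duox2 and Nos2 are the filled symbols outside the family.

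The cells that make Reg proteins were read from markers. In bulk samples, fewer cells of a type and less RNA per cell cannot be told apart. Summed markers of colon epithelium were at 9726 to 12037 FPKM in the controls and 11948 to 16228 FPKM in the Zfp90ΔIEC mice, with overlap. The difference of the mean sums, 10752 and 13882 FPKM, lay mainly in Car1, at 4706 ± 826 and 7871 ± 1942 FPKM. Epcam, an epithelial adhesion gene, was at 583 ± 27.7 and 574 ± 15.3 FPKM (SD, n = 3 each). Of the 12 markers, 6 had a negative log2 fold change. Without overlap, 0 were lower and 4 were higher, against 12.6% and 8.73% of all genes tested. None of the 12 epithelial markers, all tested, passed in limma, and 4 had an unadjusted p under 0.05. These were Krt18, Slc26a3, Car1 and Aqp8, all higher in Zfp90ΔIEC. Markers of goblet and deep crypt secretory cells, where Reg4 is made, summed to 1754 to 2110 FPKM in the controls and 2203 to 3106 FPKM in the Zfp90ΔIEC mice. None of these 10 passed in limma, with 2 at an unadjusted p under 0.05, and Muc2, the mucin of the mucus layer, stood out in replicate 1 of Zfp90ΔIEC at 1010 FPKM, beside 593 and 465 FPKM in the others. Markers of enteroendocrine cells summed to 116 to 140 and to 142 to 163 FPKM, and none of 6 tested passed in limma, with 3 at an unadjusted p under 0.05. Both secretory sums were higher without overlap in the mice with the higher mean of Reg4 (exact permutation p = 0.1, two-sided, the smallest that 3 mice against 3 allow), and their part in the Reg4 values was not tested.

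Reg genes are also made in the pancreas and, for Reg3g, by Paneth cells of the small intestine. Of 10 pancreatic acinar markers, 5 (Cela3b, Cpa1, Cpb1, Pnlip and Prss2) were listed at 0 in all mice, and nearly all of the sum of 125 to 173 FPKM came from Cela1, with the rest from Clps. Of 10 markers of Paneth cells and small intestine, 4 were listed at 0 in all mice (Defa17, Defa22, Defa30 and Apoa4), and the sum was 7.06 to 10.9 FPKM in the controls and 5.33 to 7.67 FPKM in the Zfp90ΔIEC mice. In each list 2 genes were tested and none passed in limma, with 2 and 1 at an unadjusted p under 0.05. Distal colon genes of the Hox clusters, 3 in number, summed to 83.8 to 101 and to 68.1 to 97.8 FPKM and overlapped.

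Leukocyte markers, like Reg3b and Reg3g, were mostly lower in the Zfp90ΔIEC mice. Without overlap, 8 of the 12 markers were lower and 0 were higher. Of the 4 that passed the filter 1 was lower without overlap, against 12.6% of all genes tested, and of the 8 under it 7 were, against 6.23% of the 16241 detected genes under the filter. None of the 4 tested markers passed in limma, and 1 had an unadjusted p under 0.05. S100a8, a neutrophil marker that also stands among the STAT3 and IL-22 targets, was listed at 0 in all 3 Zfp90ΔIEC mice, and Ptprc, the pan-leukocyte gene, was at 0.721 ± 0.156 and 0.371 ± 0.0875 FPKM (SD, n = 3 each). Stromal markers summed to 2.39 to 2.78 FPKM in the controls and 2.07 to 2.60 FPKM in the Zfp90ΔIEC mice, with overlap. The part of leukocytes in the Reg3b and Reg3g values was not tested.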

How the data were processed

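RNA-seq was measured in 6 samples of colon epithelium, 3 per genotype. The authors deposited a table of FPKM per gene for each sample. The submitters' processing notes name STAR 2.5, Cuffnorm, DESeq 1.22.1 and the mouse build mm9, whereas the methods of the study name TopHat, Cuffdiff and a human build for this step. Gene identifiers in the tables are from mouse. Gene and promoter coordinates come from GRCm38 (GENCODE, and RefSeq for promoters) by gene identifier, and 52403 of 52550 genes had a symbol. No fold changes or p-values of the authors were used.

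From there, log2(FPKM + 1) was compared between genotypes with limma 3.58.1 (R 4.3.3, empirical Bayes with an intensity trend), with Benjamini-Hochberg adjustment over the 11564 genes that reached 1 FPKM in 3 or more samples. Members under the filter take their fitted values from the same model without it. The script was tested on simulated data. Sums were compared with an exact permutation test (10 ways to assign genotypes, smallest p 0.1). Promoters were aligned globally with Biopython 1.88 (match 2, mismatch -1, gap opening -4, gap extension -0.5).

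Named genes were the members, Zfp90, the Reg relatives, in each list up to 3 genes past the threshold with the largest change or otherwise the 2 of highest mean level, the 5 genes nearest in profile to Reg3b and to Reg4, and the 3 protein-coding genes on each side of the cluster. Stat3, Il17a, Il22, Tnf, Lif, Slpi, Saa3, Itgam and the single marker genes were named after their values were seen. Members and lists were chosen with earlier results of these data known. The alternatives left out each sample in turn, used the replicate number as a block, added 0.1 in place of 1 as pseudocount, dropped the filter, or scaled samples by quantiles or by median ratios. Amino acid sequences were not used here, and the summed leukocyte level is not reported here. Python 3.11.15 was used with numpy 2.4.6, pandas 2.3.3 and, for the figures, matplotlib 3.10.9.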

Additional observations from a re-analysis of the deposited data

How the results depend on the processing

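No log2 fold change of a member, share of the family or summed marker level changed sign under any alternative that was run. The number of genes past the threshold, 23 in limma, was 13 with a pseudocount of 0.1, 15 without the filter on low values and 10 to 21 with a sample left out, the lowest without Zfp90fl/fl replicate 2. Without that sample the split turned from 15 lower and 8 higher to 3 lower and 7 higher, whereas in the other alternatives 52.4% to 72.2% of the genes past the threshold were lower (65.2% with all samples). Of the pathway lists, 3 genes passed, against 1 without the filter and 1 to 3 with a sample left out, the lowest again without Zfp90fl/fl replicate 2. Of the marker lists, 0 passed, and 1 did without the filter (Itgam, a leukocyte integrin). With a pseudocount of 0.1 the log2 fold changes of members below 1 FPKM were -0.48 for Reg1, -1.04 for Reg3a and -0.55 for Reg3d, as the smaller pseudocount makes low values count for more. The cause of the other shifts was not tested.

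Replicate numbers in both genotypes come from the labels. Same-numbered samples deviated from their group means with correlations across genes of 0.19, 0.11 and 0.08. Each correlated best with its own number. The main fit had no block by design, and the replicate block was run as an alternative. For Reg3b and Reg3g the number did go with the level. With the block their SE was 0.108 and 0.163, against 0.557 and 0.442 without it. For Reg4 the SE was 0.117 with the block and 0.105 without. Whether same-numbered mice were paired cannot be told from these values. With the replicate block 47 genes passed, 18 of them among the 23, and 6 of the pathway lists and 3 of the marker lists passed (Slc26a3, Clps and Car1, all higher in Zfp90ΔIEC). Depth limits Reg1, Reg3a and Reg3d, which rest on an estimated 27.7 fragments or fewer per mouse.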
